A study of Homo sapiens with 6 samples.

Results

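The genes described here are 9 cell surface adhesion genes of colon epithelium in the HT29 line: the carcinoembryonic antigen family members CEACAM1, CEACAM5 and CEACAM6, the cadherins CDH1, CDH3 and CDH17, the epithelial adhesion molecule EPCAM, and the galectins LGALS3 and LGALS4. They were chosen by name, and each name matched 1 row, so 9 of the 58978 genes in the count table are members. HT29 is an established human colon cancer line. RNA-seq compared 3 libraries of cells with a control hairpin (shCTRL, genotype given as WT) with 3 libraries of cells with a hairpin against FITM2 (shFITM2, genotype given as FITM2 knockdown), and all 6 are labelled untreated. FITM2 encodes a membrane protein of the endoplasmic reticulum that takes part in lipid droplet formation, and the series concerns lipid droplets and the trafficking of an interferon-gamma receptor chain. The labels do not say which hairpin sequences were used, whether the cells were a clone or a pool, or whether replicates were grown separately. The p-values below therefore speak of the spread between libraries alone, and that spread may be technical.

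CEACAM proteins belong to the immunoglobulin superfamily and bind one another between neighbouring cells. CEACAM1 crosses the membrane and can carry an inhibitory signalling tail, whereas CEACAM5, the carcinoembryonic antigen measured in colorectal cancer care, and CEACAM6 are held by a lipid anchor. Classical cadherins such as E-cadherin (CDH1) and P-cadherin (CDH3) join cells through calcium-dependent contacts and bind catenins inside the cell, while LI-cadherin (CDH17) is an intestinal cadherin with a short tail. EPCAM is an adhesion and signalling protein of epithelial cells that is cut by surface proteases, and galectin-3 (LGALS3) and galectin-4 (LGALS4) are soluble lectins that bind the sugar chains of surface glycoproteins.

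All 9 genes were detected in all 6 libraries and passed the filter on low counts, over a wide range of levels. On the TPM scale, which corrects for the gene lengths in the table, the shCTRL means ± SD (n = 3) ran from EPCAM at 823 ± 32.2 and LGALS4 at 439 ± 54.6 through CDH1 at 185 ± 6.27, CEACAM1 at 143 ± 11 and LGALS3 at 97.4 ± 2.91. Below these were CEACAM6 at 31.9 ± 0.305, CEACAM5 at 14.6 ± 1.41, CDH17 at 6.6 ± 0.347 and CDH3 at 1.36 ± 0.227 TPM. EPCAM ranked 107 and LGALS4 ranked 217 among the 14809 tested genes by TPM in shCTRL, whereas CDH17 ranked 9662 and CDH3 ranked 13200. The 3 libraries of neighbouring genes in this order did not overlap for any of the 8 neighbouring pairs, in either group. In shFITM2 the order was the same except that LGALS3 (134 ± 5.85 TPM) stood above CEACAM1 (101 ± 1.66 TPM). The span from EPCAM to CDH3 was 605-fold in shCTRL and 297-fold in shFITM2.

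Library totals ranged from 16964075 to 18855731 counts. FITM2 was at 13.2, 10.5 and 10.4 CPM in shCTRL and 4.83, 5.98 and 4.95 CPM in shFITM2 (log2 fold change -1.12 ± 0.157 SE, edgeR adjusted p 0.000242). The epithelial identity of the cells was readable from KRT8 (6140 CPM in shCTRL) and KRT18 (2720 CPM). Of the other intestinal epithelial markers, KRT19 was at 753, KRT20 at 245, MUC13 at 111, VIL1 at 92.3 and HNF4A at 57.3 CPM in shCTRL. GPA33, CDX1 and CDX2 were lower, at 1.9, 0.841 and 0.817 CPM. Of 8 fibroblast markers, COL1A2, PDGFRA, PDGFRB and THY1 were at 0 counts in every library and the list summed to between 1.06 and 2.82 CPM in shCTRL and between 1.26 and 1.53 CPM in shFITM2. Of 9 leukocyte markers, MS4A1 and TYROBP were at 0, and the sum (776 to 903 CPM in shCTRL, 888 to 927 CPM in shFITM2) was nearly all LYZ, a lysozyme that intestinal secretory cells also make. Of 6 endothelial markers, KDR was at 0, with sums of 1.88 to 2.49 CPM and 1.53 to 2.74 CPM. Across tested genes the log2 fold change followed the GC content of the transcript (Spearman rho 0.744, a correlation over genes and not over independent replicates). The libraries' slopes on GC content were -0.27, -0.34 and -0.065 log2 units per 10 points of GC in shCTRL and 0.26, 0.23 and 0.18 in shFITM2. The shCTRL library 3 thus stood apart from the other two controls, also on the first principal component (64.7% of the variance), at -10.7 against -38.8 and -49.2. Fold changes of the 9 genes are therefore given from a fit on group alone and from a fit with a GC offset, and that offset takes away whatever runs along GC content, including a response of the cells. The part of library preparation in this trend was not tested.

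On GRCh38 the CEACAM genes all lie on chromosome 19, with CEACAM5 (chr19:41708585-41729798, plus strand) 21178 bases from CEACAM6 (chr19:41750977-41772208, plus strand) and CEACAM1 (chr19:42507304-42561234, minus strand) another 735095 bases on. LGALS4 is on the same chromosome (chr19:38801671-38813364, minus strand), LGALS3 on chromosome 14 (chr14:55124110-55145413, plus strand) and EPCAM on chromosome 2 (chr2:47345158-47387601, plus strand). CDH3 (chr16:68636189-68722616) and CDH1 (chr16:68737225-68835548) are plus-strand neighbours on chromosome 16. RefSeq promoter windows of the 250 bases before the RefSeq start were found for 5 of the 9 members on GRCh38.p14. These starts differ from those of the gene positions above. The CEACAM5 window lies partly inside the position given for its gene, and the other windows lie wholly inside theirs. Motif distances are counted from the RefSeq start. Windows for CDH1, CDH3, CDH17 and EPCAM were not used here. The CEACAM windows are shown because CEACAM1 fell and CEACAM5 rose, and the galectin windows because LGALS3 and LGALS4 rose together in the group fit. Whether the likeness of promoters bears on these changes was not tested. Capitals mark matches, on either strand, to 4 motifs that did not overlap one another. CACCTG is an E-box of the kind bound by zinc finger repressors. A second E-box searched was CACGTG. The GC box was searched as GGGCGG. The TATA box was searched as TATAAA. The search for the second E-box was added after the windows had been seen.
CEACAM1 (chr19:42528482-42528731, minus strand): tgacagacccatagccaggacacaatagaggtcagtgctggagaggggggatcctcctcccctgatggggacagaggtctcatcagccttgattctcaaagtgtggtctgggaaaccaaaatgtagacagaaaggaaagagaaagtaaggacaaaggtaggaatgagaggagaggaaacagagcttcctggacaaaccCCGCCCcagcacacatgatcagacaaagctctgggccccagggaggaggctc
CEACAM5 (chr19:41708376-41708625, plus strand): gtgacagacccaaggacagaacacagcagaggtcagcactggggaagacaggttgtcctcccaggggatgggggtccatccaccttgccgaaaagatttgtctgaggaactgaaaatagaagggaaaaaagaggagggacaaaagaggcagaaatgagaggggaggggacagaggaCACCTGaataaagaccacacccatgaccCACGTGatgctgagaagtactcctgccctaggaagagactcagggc
CEACAM6 (chr19:41755280-41755529, plus strand): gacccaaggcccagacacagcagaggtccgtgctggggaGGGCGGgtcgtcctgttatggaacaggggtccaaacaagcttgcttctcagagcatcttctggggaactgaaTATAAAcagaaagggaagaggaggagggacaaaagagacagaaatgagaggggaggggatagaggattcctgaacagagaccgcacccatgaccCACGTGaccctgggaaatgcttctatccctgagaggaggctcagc
LGALS3 (chr14:55129002-55129251, plus strand): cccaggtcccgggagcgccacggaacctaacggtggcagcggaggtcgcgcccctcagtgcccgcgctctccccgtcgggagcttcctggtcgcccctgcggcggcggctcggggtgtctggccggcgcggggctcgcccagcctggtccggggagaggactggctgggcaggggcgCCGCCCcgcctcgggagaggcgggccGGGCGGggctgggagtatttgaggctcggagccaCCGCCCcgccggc
LGALS4 (chr19:38812946-38813195, minus strand): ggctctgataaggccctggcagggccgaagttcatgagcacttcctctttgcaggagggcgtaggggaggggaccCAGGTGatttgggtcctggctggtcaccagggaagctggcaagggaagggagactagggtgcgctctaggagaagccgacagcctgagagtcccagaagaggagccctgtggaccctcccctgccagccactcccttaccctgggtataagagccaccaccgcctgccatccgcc

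The CEACAM5 and CEACAM6 windows were identical at 78.1% of 242 aligned bases. CEACAM1 and CEACAM6 were identical at 72.4% of 239, and CEACAM1 and CEACAM5 at 69.6% of 237. CACGTG stood 46 bases before the start of CEACAM5 and 45 before that of CEACAM6, and was not among the letters of the CEACAM1 window. This motif occurs in 6.34% of all 35116 promoter windows of the same length. CEACAM5 also held CACCTG at 74 bases before its start and LGALS4 held it at 175, against 17.5% of all windows. GGGCGG was found once in CEACAM1 (52 bases before the start), once in CEACAM6 (211) and 3 times in LGALS3 (73, 47 and 13), against 42.6% of all windows. TATAAA was found in CEACAM6 alone of the 5 windows (139 bases before the start), against 10.7% of all windows. The galectin windows differed in composition: LGALS3 held 78.8% GC and 32 CpG dinucleotides, and LGALS4 held 63.2% GC and 6, beside medians of 58% and 11 over all windows. The CEACAM windows held 53.2% to 55.2% GC and 1 to 5 CpG dinucleotides. These matches describe letters only.

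In the group fit, 6 of the 9 genes passed an adjusted p under 0.05, 4 higher (CEACAM5, CDH3, LGALS3 and LGALS4) and 2 lower (CEACAM1 and EPCAM) in shFITM2. The background in the same fit was 48.7% of 14809 tested genes, 24.2% higher and 24.5% lower, and 6 of 9 is read against that share and not as a result about these genes. In bulk RNA, fewer cells carrying a transcript and less of it per cell cannot be told apart. In the fit with the GC offset, 3 of 9 passed, CEACAM5 higher and CEACAM1 and EPCAM lower, where 29.2% of 14635 genes did (11.8% higher and 17.4% lower). Without shCTRL library 3, the control that stood apart, 5 members passed with the offset, CEACAM6 and CDH3 being added. CPM values of the groups did not overlap for 7 of the 9 genes, 4 higher and 3 lower, against 59% of all tested genes (29.1% higher and 29.9% lower). The median log2 fold change of the members was 0.099, beside -2e-04 over all tested genes, and with the offset -0.0033 beside -0.027. CEACAM1 was the single member whose call held in all 22 alternative settings run.

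**Figure D1:**
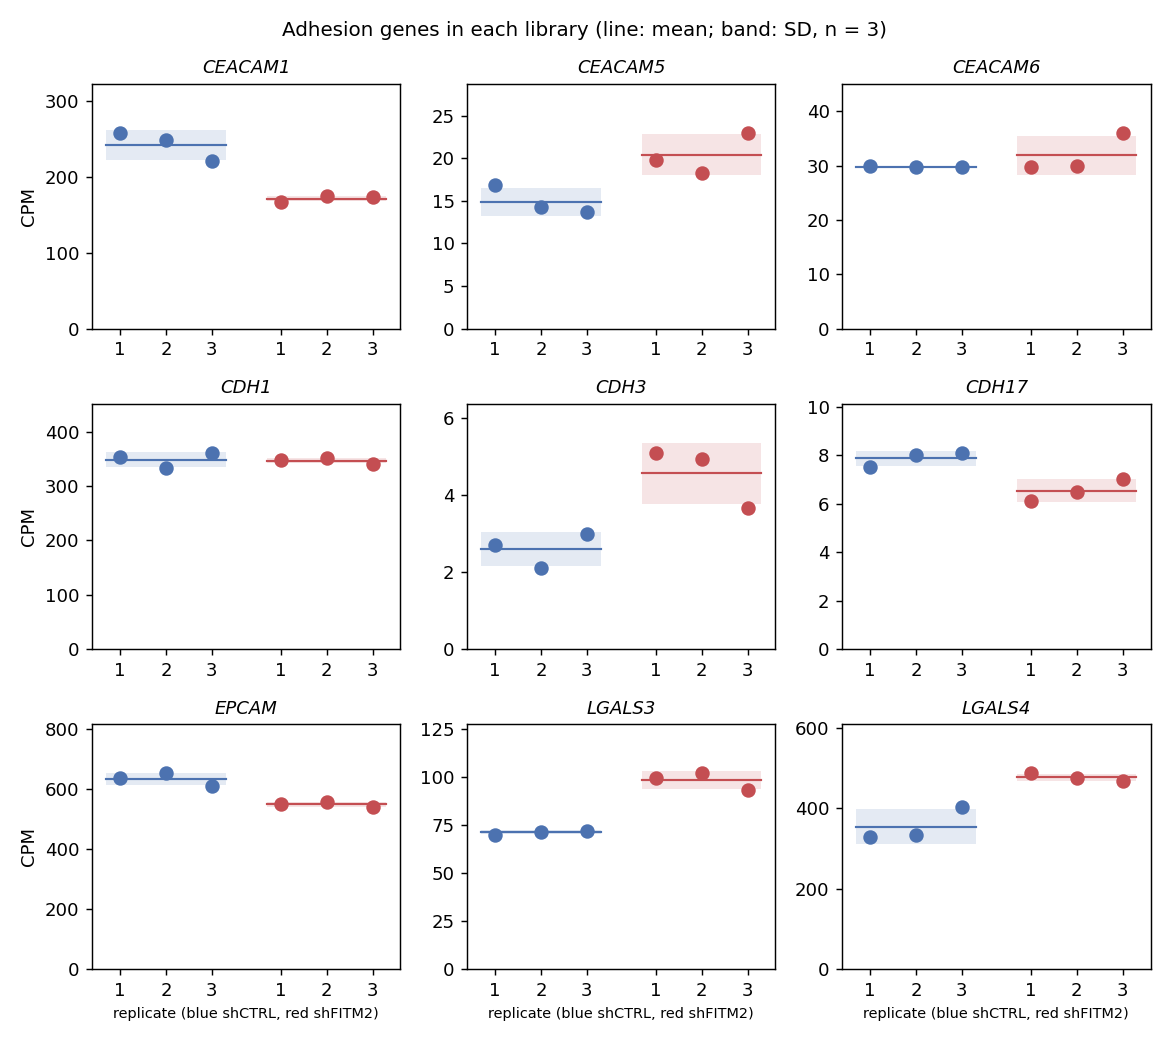
CPM of each adhesion gene in each library; the y axis of each panel starts at 0 and is in CPM, the x axis gives the replicate, blue points are shCTRL and red points shFITM2, and lines and bands are the mean and SD of 3 libraries. CEACAM1 is at 220 to 258 CPM in shCTRL and 167 to 174 in shFITM2, CDH1 overlaps between groups, and LGALS4 in shCTRL library 3 (404 CPM) lies between the other controls and the shFITM2 libraries.

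**Figure D2:**
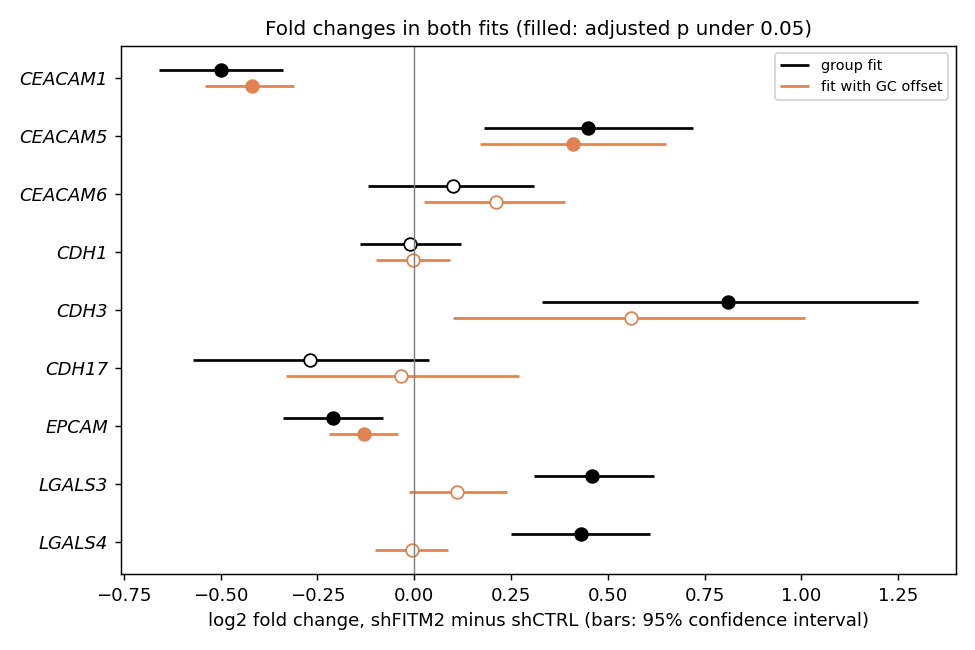
Log2 fold change of each adhesion gene, shFITM2 minus shCTRL, on the x axis, with bars for the 95% confidence interval; black is the group fit and orange the fit with the GC offset, and filled points have an adjusted p under 0.05. CEACAM1 (-0.50 and -0.42), CEACAM5 (0.45 and 0.41) and EPCAM (-0.21 and -0.13) are filled in both, while LGALS4 goes from 0.43 to -0.0064.

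CEACAM1, which encodes the transmembrane protein among the CEACAM members here, had the largest fall among the 9 genes. It stood at 258, 248 and 220 CPM in shCTRL and at 167, 174 and 173 CPM in shFITM2. Every shFITM2 library lay below every shCTRL library, and the lowest control was library 3. The mean went from 242 ± 19.8 to 171 ± 3.61 CPM (SD, n = 3), which is 70.9% of control. The log2 fold change was -0.50 ± 0.0729 (SE, edgeR adjusted p 0.00031). The GC offset left it at -0.42 (adjusted p 2.47e-05). Its transcript has 47.2% GC, for which the GC trend alone gives -0.07. Leaving out each library in turn gave -0.57 to -0.45 without the offset and -0.48 to -0.39 with it, and every call held.

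CEACAM5, the carcinoembryonic antigen, moved the other way. It stood at 16.8, 14.3 and 13.7 CPM in shCTRL and at 19.8, 18.3 and 23.0 CPM in shFITM2, from counts of 233 to 317 and of 319 to 390. The groups did not overlap, and shFITM2 library 3 was the highest. Its mean rose from 14.9 ± 1.65 to 20.4 ± 2.38 CPM (SD, n = 3), a log2 fold change of 0.45 ± 0.123 (SE, edgeR adjusted p 0.0105). Under the offset the change was 0.41 (adjusted p 0.0118), beside a GC trend of 0.035 for its 49.5% GC. The call was lost without shFITM2 library 3 in both fits, at 0.35 (adjusted p 0.0584) and, with the offset, 0.32 (adjusted p 0.082).

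CEACAM6, the lipid-anchored neighbour of CEACAM5, was at 30.0, 29.7 and 29.7 CPM in shCTRL and at 29.7, 30.0 and 36.1 CPM in shFITM2. A single library, shFITM2 library 3, lay above the rest. The log2 fold change was 0.099 ± 0.0983 (SE, edgeR adjusted p 0.429), with a 95% confidence interval from -0.12 to 0.31. Under the offset it was 0.21 (adjusted p 0.0815), and the GC-adjusted values of the groups did not overlap. With the offset and without shCTRL library 3 it passed the test, at 0.22 (adjusted p 0.0388), the 1 of 22 alternative settings in which it did. Without shFITM2 library 3 the group fit gave 0.0026 (edgeR adjusted p 0.987), and the offset gave 0.12 (adjusted p 0.368).

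Within a library, the ratio of 2 genes' counts does not depend on library scaling. CEACAM1 counts were 15.4, 17.3 and 16.1 times CEACAM5 counts in shCTRL and 8.44, 9.47 and 7.54 times in shFITM2, a log2 difference of -0.94 (exact two-sided permutation p 0.1, the smallest that 3 against 3 libraries allow, and adjusted p 0.12 over 6 ratios). With GC-adjusted values the difference was -0.84 (exact p 0.1, adjusted p 0.2). The groups did not overlap in either case. The ratio of CEACAM5 to CEACAM6 counts was 0.559, 0.483 and 0.460 in shCTRL and 0.667, 0.611 and 0.637 in shFITM2, a log2 difference of 0.35 (exact p 0.1, adjusted p 0.12). After GC adjustment this was 0.21 with overlapping groups (exact p 0.2, adjusted p 0.3). No ratio can reach 0.05 in this design.

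These CEACAM genes share stretches of coding sequence, which is why the reads behind them could be split in counting. The longest identical coding run of each pair is given, since a read inside one of them fits both genes.
CEACAM5 and CEACAM6 (65 bases, exon 4 of each, chr19:41715698-41715762 and chr19:41762017-41762081): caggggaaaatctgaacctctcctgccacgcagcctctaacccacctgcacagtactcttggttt
CEACAM1 and CEACAM5 (68 bases, exon 3 of each, chr19:42522021-42522088 and chr19:41715085-41715152): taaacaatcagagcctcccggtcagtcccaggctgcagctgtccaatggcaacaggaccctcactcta
CEACAM1 and CEACAM6 (71 bases, exon 2 of each, chr19:42527106-42527176 and chr19:41756824-41756894): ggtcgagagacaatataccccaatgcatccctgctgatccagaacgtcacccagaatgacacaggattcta

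Of 50-base words, 19% in CEACAM5, 6.99% in CEACAM6 and 4.33% in CEACAM1 occurred in another gene's transcripts. CEACAM5 shared 40 of its 570 such words with CEACAM6 and 21 with CEACAM1, and CEACAM1 shared 35 of its 170 with CEACAM6. Of 100-base words, 14.8%, 1.73% and 0.686% were shared, all with genes other than these 3. Most shared 50-base words of CEACAM5, and 112 of the 210 of CEACAM6, came from AC243967.1. This gene model overlaps CEACAM5 and CEACAM6 on the same strand and has 0 counts, so reads in exons shared with it may have gone uncounted. How reads on several genes were handled is not given in the sources used here. The summed counts of the 3 genes, which reads moving among them leave alone, were 5751, 5395 and 4484 in shCTRL and 3950, 3861 and 3943 in shFITM2. Their log2 fold change was -0.36 ± 0.0713 (SE), and -0.29 under the offset. CEACAM1 made up 84.6%, 84.9% and 83.5% of that sum in shCTRL and 77.2%, 78.2% and 74.6% in shFITM2.

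The other CEACAM genes were mostly low. Of 9 in a list of the rest of the family, 2 passed the filter on low counts, and CEACAM3, CEACAM4 and CEACAM8 had 0 counts in every library. CEACAM19 rose from 1.85, 2.76 and 4.16 to 5.93, 5.75 and 5.66 CPM (log2 fold change 0.99 ± 0.251 SE, edgeR adjusted p 0.007), with 0.54 and adjusted p 0.0769 under the GC offset. It overlaps PVR, a gene on the same strand with far more reads, so its counts are uncertain. CEACAM7 was at 0.88 to 1.24 CPM in shCTRL and 0.878 to 2.42 CPM in shFITM2 (adjusted p 0.3).

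Of the cadherins, CDH1 did not differ beyond the spread of the libraries, CDH3 was higher in shFITM2, and CDH17 was lower without passing the test. CDH1, which encodes E-cadherin, was at 353, 334 and 361 CPM in shCTRL and 348, 351 and 341 CPM in shFITM2. The groups overlapped, and the log2 fold change was -0.011 ± 0.0609 (SE, edgeR adjusted p 0.899). The 95% confidence interval ran from -0.14 to 0.12, and with the GC offset from -0.099 to 0.092, at counts of 5787 to 6660 a library.

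CDH3, which encodes P-cadherin and ends 14608 bases before CDH1 begins, was the lowest of the 9 genes. It had 51, 39 and 51 counts in shCTRL (2.70, 2.11 and 2.99 CPM) and 93, 86 and 62 counts in shFITM2 (5.10, 4.95 and 3.66 CPM). All shFITM2 libraries lay above all shCTRL libraries, with library 3 of shFITM2 closest to the controls. The log2 fold change was 0.81 ± 0.223 (SE, edgeR adjusted p 0.0103). Under the GC offset it was 0.56 (adjusted p 0.0622), beside a GC trend of 0.26 at 54.1% GC. Without shFITM2 library 1 the group fit gave 0.72 (adjusted p 0.0534). With the offset the call was made once shCTRL library 3 (0.63, adjusted p 0.0365) or shFITM2 library 3 (0.68, adjusted p 0.0486) was left out. An antisense model, AC126773.2, shares 9.27% of the 100-base words of CDH3 and has 0 counts, and without a strand setting its reads could not be told apart. The ratio of CDH3 to CDH1 counts changed by 0.82 on the log2 scale (exact permutation p 0.1, adjusted p 0.12), and by 0.56 with GC-adjusted values (exact p 0.1, adjusted p 0.2).

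CDH17, which encodes LI-cadherin, was at 7.52, 8.01 and 8.09 CPM in shCTRL and 6.09, 6.50 and 7.02 CPM in shFITM2. The groups did not overlap, but the log2 fold change of -0.27 ± 0.14 (SE) had an edgeR adjusted p of 0.132. The offset gave -0.033 (adjusted p 0.894), beside a GC trend of -0.24 at 43.4% GC, the lowest of the members. After that offset the groups overlapped. The 95% confidence interval with the offset ran from -0.33 to 0.27, at 111 to 148 counts a library, so changes within that range either way remain possible.

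Of 25 other cadherins, 4 passed the filter and 10 had 0 counts in every library, CDH2 (N-cadherin) among them. CDH24 was the single one to pass the test, at 0.45 ± 0.136 (SE, edgeR adjusted p 0.017), and its value turned to -0.27 under the GC offset (adjusted p 0.0597). Its group-fit call was lost without shCTRL library 1 or shFITM2 library 1 or 2 (adjusted p up to 0.0831). Among their catenin partners, CTNNA1 gave 0.013 (adjusted p 0.869) and, with the offset, 0.055 (adjusted p 0.379), and CTNND1 gave -0.018 (adjusted p 0.832) and 0.08 (adjusted p 0.179). CTNNB1, the catenin that also acts in Wnt signalling, gave -0.20 (adjusted p 0.0208) and 0.07 under the offset (adjusted p 0.253). Of the 16 catenin and adherens junction genes, 6 were higher and 4 lower in the group fit, and 1 was higher and 6 lower with the GC offset. Over all tested genes, 24.2% were higher and 24.5% lower in the group fit, and 11.8% and 17.4% with the offset. LIMA1 (-0.74 ± 0.0685 SE, adjusted p 3.82e-05), VCL (-0.75 ± 0.0787, adjusted p 5.99e-05) and NECTIN3 (-0.85 ± 0.115, adjusted p 2e-04) fell in both fits, at -0.38, -0.71 and -0.45 with the offset. VCL encodes vinculin, which links adhesion sites to actin, LIMA1 an actin-binding protein, and NECTIN3 an adhesion receptor of the immunoglobulin superfamily. VCL overlaps AP3M1 on the other strand.

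EPCAM, the most abundant member, stood at 638, 652 and 611 CPM in shCTRL and at 551, 556 and 539 CPM in shFITM2, with no overlap. The mean was 634 ± 20.8 in shCTRL and 549 ± 8.99 in shFITM2 (SD, n = 3), 86.6% of control. The log2 fold change was -0.21 ± 0.0586 (SE, edgeR adjusted p 0.0121). It was -0.13 under the offset (adjusted p 0.0292), beside a GC trend of -0.076. The size kept its sign in all 22 settings, from -0.24 to -0.11, but the call in the group fit was lost without shCTRL library 1 (adjusted p 0.051) and without shFITM2 library 1 (0.0506), library 2 (0.052) or library 3 (0.0552). With the offset the call held without shCTRL library 3 alone, and leaving out any other library gave adjusted p values of 0.0645 to 0.156. The ratio of EPCAM to CDH1 counts was 1.81, 1.95 and 1.69 in shCTRL and 1.58, 1.59 and 1.58 in shFITM2, a log2 difference of -0.20 (exact permutation p 0.1, adjusted p 0.12), and -0.13 with GC-adjusted values (exact p 0.1, adjusted p 0.2).

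Genes that work with EPCAM were read as a list of 13 partners and tetraspanins. In the group fit 9 rose and none fell, and with the GC offset 5 rose and 2 fell, with 4 rising in both, where 24.2% of all tested genes rose and 24.5% fell in the group fit and 11.8% and 17.4% with the offset. Those 4 were SPINT1, a protease inhibitor, at 0.76 and 0.20, CLDN7, a claudin that binds EPCAM, at 0.74 and 0.22, CD82, a tetraspanin, at 0.95 and 0.44, and PRSS8, a membrane serine protease, at 0.87 and 0.21, where the first value is the group fit and the second has the offset. All 8 passed the edgeR threshold, with adjusted p from 3.82e-05 to 6.83e-05 in the group fit and from 0.00393 to 0.0298 with the offset. With the offset and a library left out in turn, CD82 lost its call in 3 of 6 fits (without shCTRL library 1 or shFITM2 library 1 or 2, adjusted p up to 0.0773), PRSS8 in 2 (without shFITM2 library 2 or 3, up to 0.0928) and CLDN7 in 1 (without shFITM2 library 1, 0.0638). CLDN7 overlaps ELP5 on the other strand. The list's median log2 fold change was 0.51 in the group fit and 0.12 with the offset, beside -2e-04 and -0.027 over all tested genes.

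A list of 15 genes held proteases of the kind that shed or cut surface proteins, and the gamma-secretase subunits NCSTN, APH1A, APH1B and PSENEN. Of these 15 genes, 8 were higher and 3 lower in the group fit and 5 and 2 with the offset. The shares of all tested genes were 24.2% higher and 24.5% lower in the group fit, and 11.8% and 17.4% with the offset. PSENEN, a subunit of gamma-secretase, rose from 2.44, 1.78 and 4.63 to 21.7, 23.3 and 18.3 CPM (log2 fold change 2.85 ± 0.279 SE, edgeR adjusted p 0.000157, and 2.72 with the offset). PSENEN overlaps U2AF1L4 on the other strand. MMP14, a membrane-bound matrix protease, gave 0.92 ± 0.156 (adjusted p 0.000727) and 0.43 (adjusted p 0.0252), the second lost without shCTRL library 2 or shFITM2 library 1 or 2 (adjusted p up to 0.129). ADAM10, a sheddase of adhesion proteins, gave -0.26 (adjusted p 0.00566) and 0.16 with the offset (adjusted p 0.0314), so its direction turned.

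LGALS3 and LGALS4 rose together in the group fit, and neither passed the test with the GC offset. LGALS3 was at 70.1, 71.7 and 72.3 CPM in shCTRL and 99.7, 102 and 93.4 CPM in shFITM2. The groups stood apart, and the mean went from 71.4 ± 1.15 to 98.5 ± 4.6 CPM (SD, n = 3), 138% of control. The log2 fold change was 0.46 ± 0.0706 (SE, edgeR adjusted p 0.000376). Under the offset it was 0.11 (adjusted p 0.176), beside a GC trend of 0.35 at 56% GC, and the GC-adjusted groups overlapped.

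LGALS4 was at 328, 333 and 404 CPM in shCTRL and 487, 476 and 468 CPM in shFITM2. The shCTRL library 3, which stood apart on GC content, was the highest control, and the SD of the controls (42.7) was larger than that of the shFITM2 libraries (9.46). The log2 fold change was 0.43 ± 0.0816 (SE, edgeR adjusted p 0.00139). Under the offset it was -0.0064 (adjusted p 0.936, 95% confidence interval -0.10 to 0.088), beside a GC trend of 0.44 at 57.9% GC. The balance between the galectins did not differ beyond the spread of the libraries. The ratio of LGALS4 to LGALS3 counts was 4.67, 4.65 and 5.59 in shCTRL and 4.88, 4.65 and 5.01 in shFITM2, a log2 difference of -0.03 (exact permutation p 0.9, adjusted p 0.9).

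**Figure D3:**
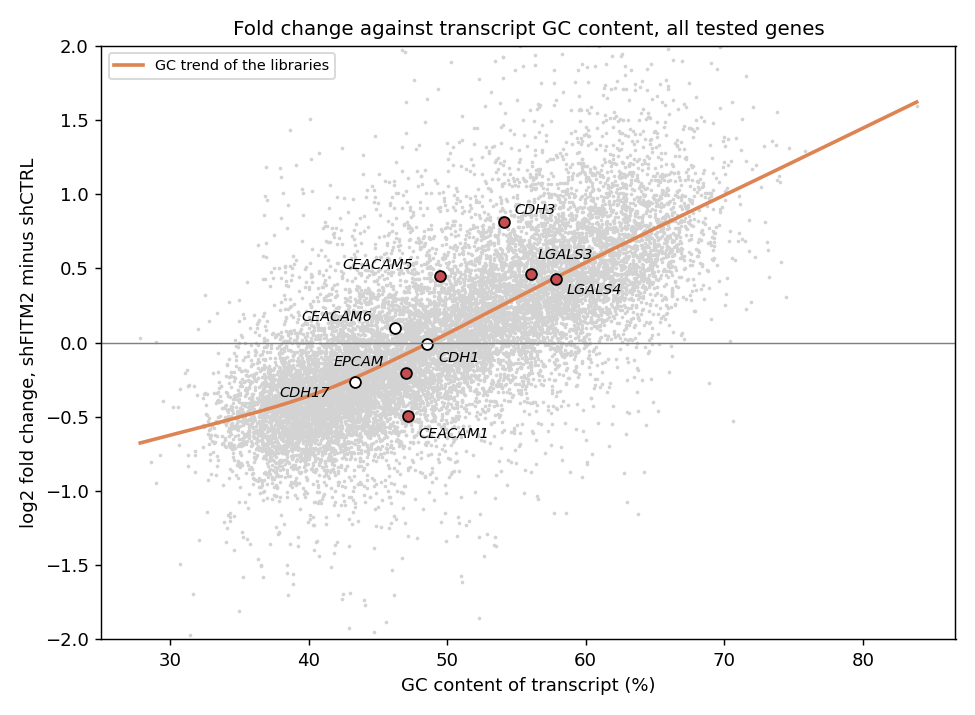
Log2 fold change of each tested gene (grey) against the GC content of its transcript in percent, with the GC trend of the libraries as the orange line and the adhesion genes as large points, red where the group fit passed an adjusted p of 0.05. LGALS3, LGALS4 and CDH17 lie near the line, and CDH3 (0.81 beside a trend of 0.26), CEACAM1 and CEACAM5 lie away from it. Beyond the axis limit of 2 either way lie 51 of 14635 genes.

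**Figure D4:**
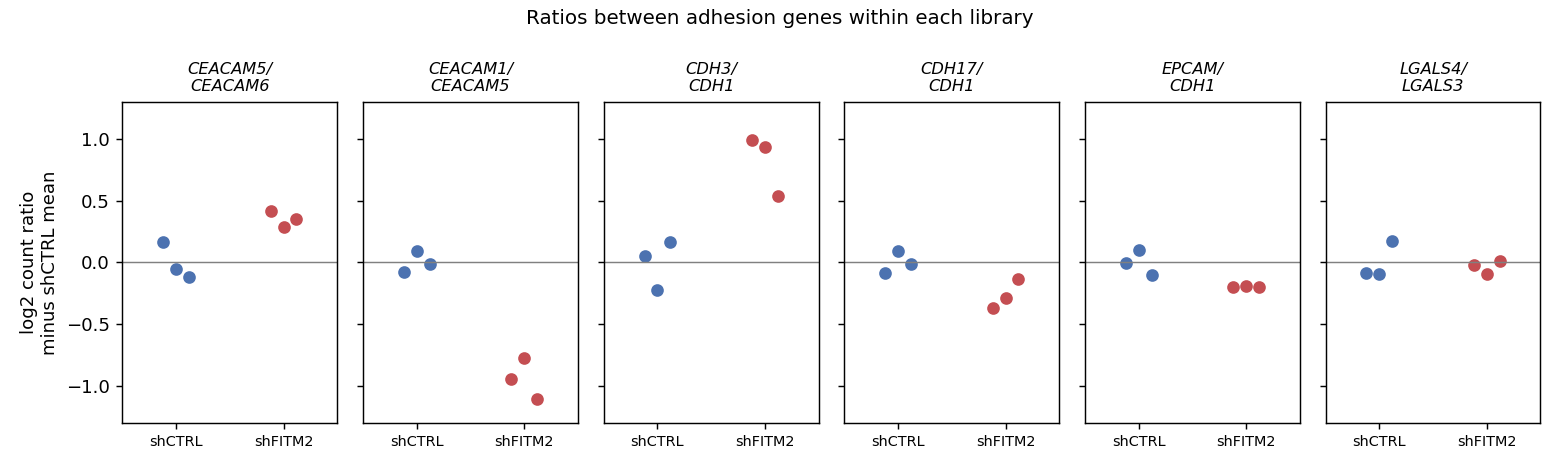
Log2 ratio of the counts of 2 adhesion genes within each library, minus the shCTRL mean of that ratio, on the y axis, for 6 pairs; blue points are shCTRL and red points shFITM2 libraries. The CEACAM1 to CEACAM5 ratio is lower by 0.94 in shFITM2 and the LGALS4 to LGALS3 ratio differs by -0.03.

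Of 14 further galectin genes, LGALS3BP included, 7 passed the filter, and 4 rose and 1 fell in the group fit, while with the GC offset 1 fell and none rose. Among all tested genes, 24.2% rose and 24.5% fell in the group fit, and 11.8% rose and 17.4% fell with the offset. LGALS1 was at 6.94, 5.03 and 7.63 CPM in shCTRL and 9.99, 10.9 and 10.9 CPM in shFITM2 (log2 fold change 0.70 ± 0.163 SE, adjusted p 0.00436, and 0.22 with the offset, adjusted p 0.287). LGALS8, which overlaps HEATR1 on the other strand, gave -0.37 (adjusted p 0.00794) and -0.049 (adjusted p 0.637). LGALS9 gave 0.43 (adjusted p 0.00817) and 0.18 (adjusted p 0.183). LGALS3BP, a secreted glycoprotein that binds galectin-3, passed the test in both fits with opposite signs, at 0.32 ± 0.0837 (adjusted p 0.00832) and, with the offset, -0.24 (adjusted p 0.000642). The group-fit call was lost without shCTRL library 1 (adjusted p 0.0563).

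Galectins bind sugar chains built by N-glycan branching enzymes. Of 14 such enzymes, 7 were higher and 2 lower in the group fit, and 5 and 1 with the offset. Beside these counts, 24.2% of all tested genes were higher and 24.5% lower in the group fit, and 11.8% and 17.4% with the offset. MGAT3, which adds a bisecting sugar, rose from 5.83, 8.17 and 8.21 to 16.2, 15.8 and 15 CPM (log2 fold change 1.08 ± 0.145 SE, edgeR adjusted p 0.000188, and 0.50 with the offset, adjusted p 0.0119). The offset call of MGAT3 was lost without shCTRL library 1 or shFITM2 library 1 or 2 (adjusted p up to 0.0711). MGAT5, which adds the branches that galectin-3 favours, gave 0.28 (adjusted p 0.00593) and 0.26 (adjusted p 0.00131). B4GALT3, which overlaps PPOX on the other strand, gave 0.57 (adjusted p 2e-04) and 0.14 (adjusted p 0.134).

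Lists of other junction genes are given beside the shares of all tested genes, 24.2% higher and 24.5% lower in the group fit and 11.8% and 17.4% with the offset. Of 8 desmosome genes tested, 2 rose and 2 fell in the group fit and 4 and 3 with the offset, with 2 higher and 2 lower in both. Those with the smallest p were the plakin linkers EVPL (1.12 ± 0.123 SE, adjusted p 8.9e-05, and 0.36 with the offset) and PPL (0.73 ± 0.0909, adjusted p 0.000132, and 0.23). The 2 lower in both were DSG2 (-0.51, edgeR adjusted p 0.000295, and -0.22 with the offset) and PKP2 (-0.4, adjusted p 0.00195, and -0.31). Of 19 tight junction genes, 8 rose and 5 fell, and 3 and 4 with the offset. Of 11 integrins tested, 3 rose and 3 fell, and 5 rose and none fell with the offset. ITGB4, a laminin receptor chain, gave 0.89 ± 0.123 (adjusted p 0.000592) and 0.20, while ITGA3 gave 0.52 and -0.058.

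Of 14 regulators of epithelial identity, 6 rose and 2 fell in the group fit and 1 and 4 with the offset. The counts in these lists stand beside 24.2% higher and 24.5% lower of all tested genes, and 11.8% and 17.4% with the offset. ELF3, the 1 that was higher with the offset, gave 0.55 (adjusted p 0.000309) and 0.21 (adjusted p 0.00737), the second lost without shFITM2 library 3 (adjusted p 0.0694). The 4 lower with the offset were KLF5, ESRP2, OVOL2 and CDX1. KLF5, at 869 CPM in shCTRL, was lower in both fits, at -0.34 (edgeR adjusted p 0.000967) and -0.26 (adjusted p 0.000865). Of 11 mesenchymal transition genes, 6 (SNAI2, TWIST1, TWIST2, VIM, CDH2 and SPARC) had 0 counts in every library. Of the 4 tested, S100A4 was higher in both fits (0.50 ± 0.0745 SE, adjusted p 0.000323, and 0.28) and FN1 lower in both (-0.78 ± 0.271, adjusted p 0.032, and -0.86). The S100A4 call was lost with the GC and length offset (0.21, adjusted p 0.235) and, with the GC offset, without shCTRL library 1 or any 1 of the shFITM2 libraries (adjusted p up to 0.0883). In both fits the FN1 call was lost without shCTRL library 1 or 2 or shFITM2 library 2 or 3 (adjusted p up to 0.109 and, with the offset, 0.111), and it was also lost in the DESeq2 Wald test. Of 10 intestinal epithelial markers, 7 rose and 1 fell in the group fit and 3 and 2 with the offset, with MUC13, a membrane mucin, lower in both (-0.61 and -0.42) and KRT19 at 0.57 and -0.042.

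**Figure D5:**
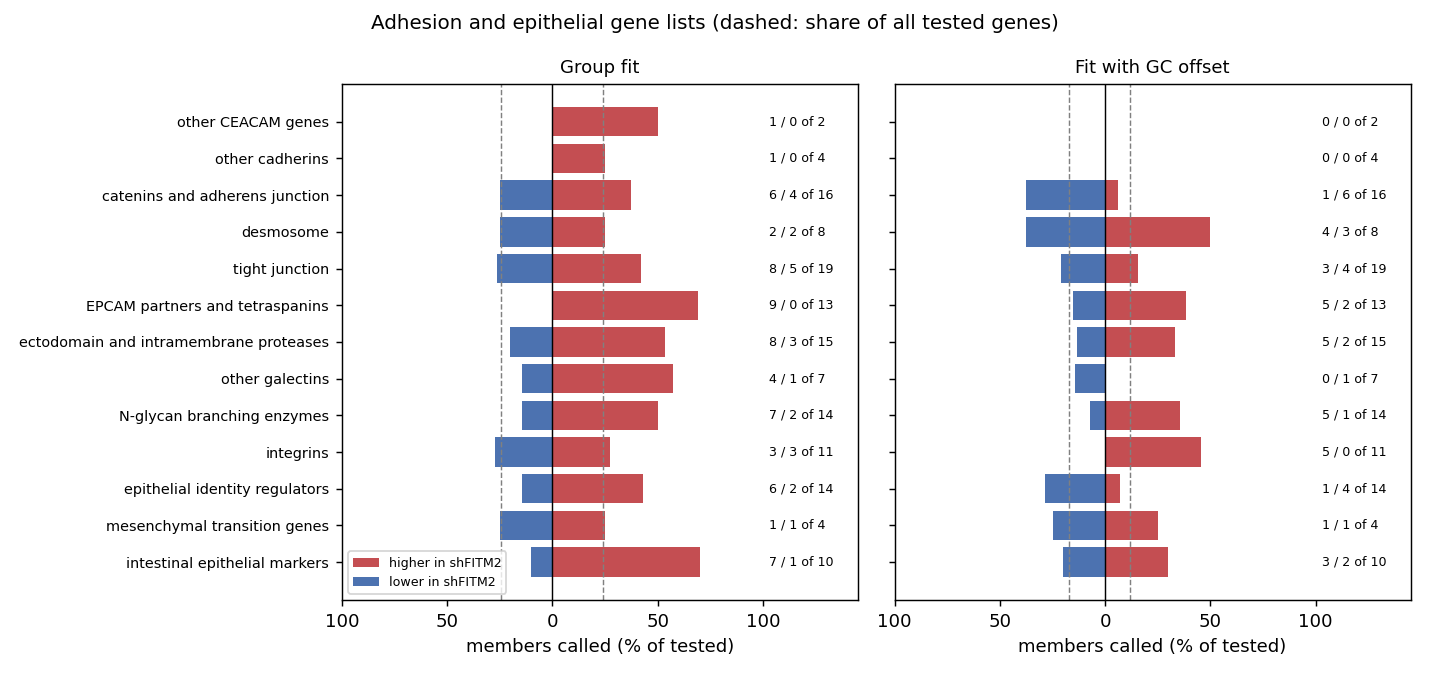
Members of each adhesion or epithelial list that passed an adjusted p under 0.05, as a percent of those tested, with bars to the right for higher and to the left for lower in shFITM2; the left panel is the group fit, the right panel has the GC offset, dashed lines are the share of all tested genes, and the numbers beside the bars are higher / lower of tested. EPCAM partners are 9 / 0 of 13 on the left and 5 / 2 of 13 on the right.

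For each member, the protein-coding gene most like it over the 6 libraries was found by Pearson r of log2 CPM, as a description of 6 points that share library and group. The pairs were CEACAM1 with MT1E (r 0.999), EPCAM with MYO5C (0.9998), LGALS3 with RETREG2 (0.9995), LGALS4 with MAP7D1 (0.9997), CDH1 with NOP14 (0.9989), CDH3 with ANAPC2 (0.9979), CDH17 with COMMD10 (0.9971), CEACAM5 with WDR45B (0.9943) and CEACAM6 with EIF3CL (0.9869). Many genes were nearly tied with some of these partners: 201 exceeded r 0.99 with CEACAM1, 104 with EPCAM, 100 with LGALS3 and 276 with LGALS4. For CEACAM6 the likeness rested on shFITM2 library 3, in which EIF3CL stood at 59.3 CPM against 2.60 to 3.99 CPM in the other libraries, and EIF3CL has a near-identical copy in the genome. MT1E, a metallothionein, was at 28.5, 26.1 and 18.8 CPM in shCTRL and 8.84, 10.2 and 9.44 CPM in shFITM2, the same order of libraries as CEACAM1 in the controls.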

How the data were processed

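Raw read counts per gene for 6 libraries were read from the authors' deposited table. The submitters' processing notes name featureCounts 1.5.0-p3, HISAT2 2.0.5, DESeq2 1.16.1 and StringTie 1.3.3b, with no roles, and hg19 as the build, but 58735 of the 58978 rows carry GENCODE 29 positions on GRCh38, which are used here. The counting's strand and multi-mapping settings are not given in the sources used. Per the labels' protocols, libraries were made with a directional kit.

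Groups were compared in edgeR 4.0.16 (R 4.3.3) by its robust quasi-likelihood F-test with group as the one term and TMM scaling. Genes needed a count of 10 and a total of 15 in the edgeR filter. P-values were adjusted by Benjamini-Hochberg over all 14809 tested genes. A second fit took as an offset, by gene and library, a smooth curve of log2 deviations against transcript GC (smoothing spline, 6 degrees of freedom). GC content was known for 98.8% of tested genes. Replicates of a group differed by more than sampling noise (chi-square per gene 2.33 to 29), so each library counted once. CPM used TMM library sizes and TPM the gene lengths in the table. Ratios were tested by exact two-sided permutation over 20 arrangements. Gene-list counts carry no list test. The scripts were tested on simulated counts. Alternatives were other scalings, filters, DESeq2 1.42.0, limma 3.58.1, a replicate block, a GC and length offset, and each library left out. The members, the lists and the tests were chosen with earlier results of these data known. Genes named in the text are the members, FITM2, overlapping genes, the nearest gene of each member and, of each list, up to 4 genes with the smallest p, and some genes that this rule names are left out of the text. CTNNA1, CTNNB1, CTNND1, ADAM10, MGAT5, LYZ, KRT8, KRT18, KRT20, VIL1, HNF4A, GPA33, CDX1 and CDX2 were named after their values were seen. So were KLF5, ESRP2, OVOL2, DSG2 and PKP2.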

Additional observations from a re-analysis of the deposited data

How the results depend on the processing

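The group fit called 7205 genes and 6 members. The GC offset gave 4274 genes and 3 members, the GC and length offset 4224 and 3, and the GC offset with the replicate block 4183 and 3. Leaving out each library in turn gave 5338 to 9008 genes and 4 to 6 members in the group fit, and 2806 to 5615 genes and 2 to 5 members with the GC offset, the highest without shCTRL library 3. Other scalings, filters and tests (DESeq2, limma-voom) kept 6 members called. Deviations from the group means were hardly correlated between libraries of the same replicate number (-0.041, -0.0066 and -0.065). These values cannot show whether the replicates were paired, because the labels do not say how they were grown. With the replicate block 6729 genes and 5 members were called, with EPCAM at an edgeR adjusted p of 0.0507.

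Of the genes and ratios run under the alternatives, these turned in direction, and beyond the removal of the GC trend that the offset makes the cause was not tested. In the order GC offset, GC and length offset, and GC offset with replicate block, LGALS4 gave -0.0064, -0.023 and -0.0055, CDH24 -0.27, -0.25 and -0.27, CDHR5 -0.31, -0.29 and -0.31, ARVCF -0.078, -0.056 and -0.078, LGALS3BP -0.24, -0.23 and -0.24, ITGA3 -0.058, -0.035 and -0.056, and KRT19 -0.042, -0.065 and -0.041. Under the GC offset, directions also turned for CTNNB1 (-0.20 to 0.07), CTNND1 (-0.018 to 0.08), ADAM10 (-0.26 to 0.16), KRT18 (0.34 to -0.053), ESRP2 (0.22 to -0.3), ANAPC2 (0.41 to -0.29) and WDR45B (0.08 to -0.053). CDH1 gave 0.00021 without the count filter and 0.019 with the GC and length offset. With a library left out in the group fit, LGALS4 ranged from 0.37 to 0.52, CDH24 from 0.35 to 0.61, CDHR5 from 0.27 to 0.62, CDHR3 from -0.18 to -0.041, ARVCF from 0.63 to 0.86, LGALS3BP from 0.26 to 0.42, ITGA3 from 0.48 to 0.57, KRT19 from 0.50 to 0.69, CDH17 from -0.32 to -0.22, CDH1 from -0.048 to 0.0064 and the LGALS4 to LGALS3 ratio from -0.076 to 0.057. With the GC offset and a library left out, CDH1 ranged from -0.036 to 0.021, CDH17 from -0.077 to 0.022, LGALS4 from -0.043 to 0.018, CDH24 from -0.32 to -0.23, CDHR5 from -0.46 to -0.22, CDHR3 from -0.083 to 0.053, ARVCF from -0.13 to -0.048, LGALS3BP from -0.27 to -0.22, ITGA3 from -0.11 to -0.028 and KRT19 from -0.074 to -0.021. Depth limits CDH3 (39 to 93 counts) and CDH17 (111 to 148 counts) most.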
